A study of Homo sapiens with 30 samples.

Results

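The genes described here make up the ATF4 program as it was measured in LNCaP cells: ATF4 itself, the stress regulators tied to it, enzymes that make asparagine, serine, glycine, one-carbon units, proline and cysteine, amino acid transporters, and the cytosolic aminoacyl-tRNA synthetases with the tRNA export factor XPOT. They were taken by symbol from a list of 43 genes, and all 43 had a row among the 26443 genes with values in the deposited tables. By role they comprised 11 transcription factors and stress regulators, 8 enzymes of asparagine, serine, glycine and folate metabolism, 5 enzymes of proline synthesis, transsulfuration and the PEPCK step, 6 transporters, and 13 genes of tRNA charging and export. ALDH1L2, a mitochondrial folate enzyme, was at most 0.133 FPKM or RPKM in any library and could not be tested, so 42 members were tested.

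RNA was sequenced from LNCaP, a human prostate cancer cell line that responds to androgen, in 30 libraries forming 10 groups of 3. In the pLKO experiment, cells were infected for 5 days with the control vector (pLKO) or with an shRNA against USP7 (labelled shUSP7-1), BUB3 or FOXA1. In the siRNA experiment, cells were transfected for 4 days with a control siRNA (siCtrl) or an siRNA against EZH2 (siEZH2). In the pGIPZ experiment, cells carried for 5 days a control shRNA (pGIPZ), an shRNA against FOXA1 (shFoxA1), or the same shRNA with re-expressed HA-tagged wild-type FOXA1 (shFoxA1 WT) or an HA-tagged FOXA1 in which a lysine was replaced by alanine (shFoxA1 K295A). The stated range of samples for that time leaves out the third K295A library. The 2 FOXA1 knockdowns are written as the labels spell them: shFOXA1 for the pLKO experiment and shFoxA1 for the pGIPZ experiment. USP7 removes ubiquitin from proteins, BUB3 is a spindle checkpoint protein, EZH2 is the methyltransferase of polycomb complex PRC2, and FOXA1 is a transcription factor that opens chromatin. The title names the question of the series, the control of FOXA1 protein stability by polycomb and by BUB3 with USP7. All groups come from 1 cell line, and nothing in the labels says whether libraries of a group came from separate cultures, so the p-values measure the spread between these libraries.

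ATF4 is the transcription factor of the integrated stress response. Kinases that sense missing amino acids, misfolded protein, viral RNA or lack of heme phosphorylate the initiation factor eIF2, which slows general translation and favours translation of the ATF4 message, so ATF4 protein can change with little change in its RNA. ATF4 binds DNA with C/EBP partners at C/EBP-ATF response elements and turns on genes for amino acid uptake, amino acid synthesis and tRNA charging. It also turns on DDIT3 (CHOP), TRIB3 and PPP1R15A, which steer or end the response. Tumour cells, prostate cancer cells among them, use the program to supply serine, glycine, asparagine and one-carbon units for growth.

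Promoter windows from RefSeq (build GRCh38.p14), each running from 250 bases before to 50 bases after a gene start, were found for 35 of the 43 members and searched on both strands for the 8 letters TGATGNAA of the C/EBP-ATF response element. A match was found for 16 of the 35 members (45.7%), whereas 1270 of all 35116 windows of the same length held one (3.62%), and 1217 of 27305 genes had one (4.46%). Since a match is only a run of letters, it is no proof of a bound site. The windows of 30 bases printed here are examples, chosen to show the matched letters in members of 4 roles; the other matches are not printed. The matched letters are in capitals, the sequence runs 5′ to 3′ on the strand of the gene, and matches on the opposite strand read as the reverse complement.
ASNS, chr7:97872458-97872487 (-): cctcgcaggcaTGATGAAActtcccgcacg
MTHFD1L, chr6:150866346-150866375 (+): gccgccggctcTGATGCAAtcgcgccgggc
CHAC1, chr15:40953251-40953280 (+): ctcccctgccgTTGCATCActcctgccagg
SLC1A5, chr19:46784893-46784922 (-): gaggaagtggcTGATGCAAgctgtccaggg
SLC1A4, chr2:64989381-64989410 (+): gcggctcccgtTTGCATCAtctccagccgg
SLC7A1, chr13:29595663-29595692 (-): gggcgcactgcTGATGAAAcctggcgccgg
AARS, chr16:70289675-70289704 (-): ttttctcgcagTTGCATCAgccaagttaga
GARS, chr7:30594834-30594863 (+): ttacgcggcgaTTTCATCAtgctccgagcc

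Counted from the gene start, the match began at -68 in ASNS, the enzyme that makes asparagine, and at -97 in SLC1A5, the main glutamine carrier. It began at -7 in SLC1A4, at -33 in GARS and at -209 in CHAC1. Among the roles, matches were found for 4 of 5 transporters with a window, 7 of 11 genes of tRNA charging and export, 2 of 5 enzymes of the serine and folate group, 3 of 10 regulators and 0 of 4 enzymes of the proline and PEPCK group. Of the synthetase genes outside the members, 0 of 9 other cytosolic synthetase and scaffold genes and 1 of 14 mitochondrial synthetases had one. AARS, CARS, GARS, IARS, MARS, NARS and TARS held the match, at positions from -187 to 14 relative to the start.

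**Figure D1:**
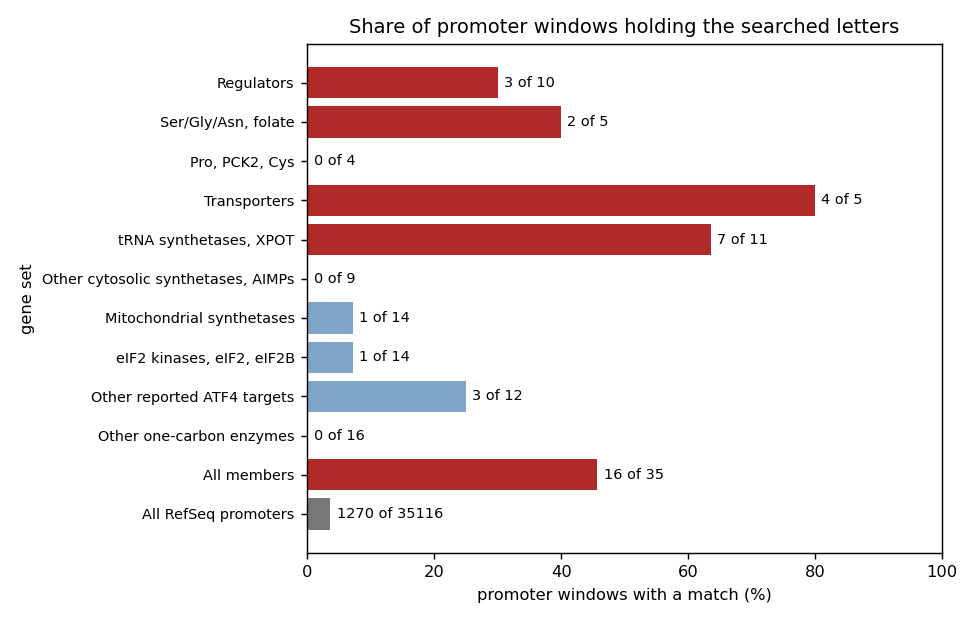
Share (percent, horizontal axis) that holds the searched letters on either strand. Red bars (roles of the members) and blue bars (further gene lists) count genes with at least 1 matching window, among genes with a window. The grey bar counts single windows among all RefSeq windows. The members as a whole reach 45.7% against 4.46% of all genes with a window and 3.62% of all windows, with transporters and synthetases highest.

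Depth, estimated from the step of low values relative to the first library of the same table, was 0.9 to 1.3 in the pLKO experiment, 0.602 to 0.831 in the siRNA experiment and 0.847 to 1.3 in the pGIPZ experiment, and 11262 to 12000 genes reached a value of 1 per library. The third shBUB3 library stands apart from its group, with a sum of values of 367614 against 306578 and 302935 for the others. The sums of shFOXA1 (235344 to 244645) and siEZH2 (235356 to 242449) lay below those of pLKO (275695 to 286460) and siCtrl (278048 to 290339). The targeted RNAs were lower in each knockdown, by log2 differences of -2.02 for USP7, -2.91 for BUB3, -0.96 and -0.67 for FOXA1 (shFOXA1 and shFoxA1) and -1.18 for EZH2. Some targets were also low in other knockdowns. EZH2 was 5.92 to 6.51 FPKM with shUSP7, 4.31 to 4.74 with shBUB3 and 5.39 to 6.22 with shFOXA1 against 12.3 to 12.8 in pLKO, while with siEZH2 it was 4.83 to 5.08 against 11.7 to 13.5 with siCtrl. BUB3 was 15.02 to 16.3 FPKM with shFOXA1 and 27.9 to 28.8 with shUSP7 against 33.7 to 38.3 in pLKO, and USP7 was 21.7 to 22.1 with shFOXA1 against 27.6 to 28.6. FOXA1 was 86.7 to 97.2 FPKM with siEZH2 against 130.4 to 137 with siCtrl. All 7 luminal prostate markers searched had a mean of at least 1 in every group. Their summed level was lowest with siEZH2 (509.861 to 613.283 FPKM against 2141.58 to 2241.54 with siCtrl). It was 936.148 to 992.353 with shUSP7, 1191.04 to 1278.04 with shBUB3 and 1366.08 to 1429.28 with shFOXA1, all below pLKO (2084.92 to 2107.34). In the pGIPZ experiment it was 2371.78 to 2399.76 RPKM in the control, 1980.83 to 2011.72 with shFoxA1, 1676.48 to 1725.57 with WT and 1621.14 to 1634.35 with K295A. Of 5 immune markers only CD68 reached a mean of 1 in any group, and their sum was 32.2757 to 35.1968 RPKM with shFoxA1 against 11.7822 to 14.7514 in pGIPZ. The sum of 6 stromal markers was 23.0653 to 26.3327 FPKM with siEZH2 against 6.08284 to 7.07731 with siCtrl. It was 17.0599 to 20.2742 with shBUB3, 4.20354 to 4.79361 with shUSP7 and 6.80874 to 8.21276 with shFOXA1. In pLKO it was 8.27913 to 8.53905. With shFoxA1 it was 14.4275 to 15.5395 RPKM against 7.84367 to 9.88195 in pGIPZ. ACTA2 made up most of the rises with shBUB3 (mean 11.8557 against 2.81228) and shFoxA1 (7.32442 against 2.01842). VIM and COL3A1 were lower by means with shBUB3, and COL1A1 was lower with shFoxA1. Summed levels of 3 basal markers lay above control with shFOXA1 and shFoxA1 (5.41512 to 7.496 RPKM against 2.60807 to 2.69114 for the latter). They lay below it in the other knockdowns. The part of these shifts and of the other lowered targets in the results on the members was not tested.

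Most members were lower in each of the 5 knockdowns than in the control of the same experiment. A member is called when its Benjamini-Hochberg adjusted p in limma, over all genes tested, is under 0.05, and differences are on the log2(value + 1) scale unless said otherwise. With shUSP7, 33 of 42 members were called lower and 3 higher, where 33% of all genes tested were called lower and 29.1% higher. With shBUB3, 28 were called lower and 6 higher (32% and 33.3% of all genes). With shFOXA1, 29 were lower and 5 higher (45.1% and 25.2%), and with siEZH2, 37 were lower and 1 higher (43% and 20.3%). With shFoxA1, 26 were lower and 7 higher (24.2% and 25%). That last count of higher members was 4 when the second pGIPZ library was left out.

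The sizes differed more than the counts did. The median log2 difference over the 42 members was -0.84 with siEZH2, -0.68 with shUSP7, -0.54 with shFOXA1, -0.45 with shBUB3 and -0.19 with shFoxA1. The median over all genes tested was -0.16, -0.02, -0.15, 0.01 and 0.00 in the same order. On this scale, a fall of at least 2-fold was called for 14 members with shUSP7 (5.79% of all genes), 13 with siEZH2 (7.03%), 12 with shBUB3 (5.64%) and 9 with shFOXA1 (8.87%), and 3 members rose at least 2-fold with shFOXA1 (4.28%). With shFoxA1 no member moved 2-fold in either direction, and 1.94% of all genes rose and 0.899% fell that far. The shUSP7, shBUB3 and shFOXA1 comparisons share the same 3 pLKO libraries, so their likeness is no independent evidence.

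Scaling of the deposited values between libraries by median ratios moved the median of all genes by 0.1374 for shFOXA1 and by 0.1285 for siEZH2. It raised the share of higher genes among all called genes from 35.85% to 48.35% for shFOXA1 and from 32.05% to 45.81% for siEZH2. On that scale the members' median was -0.39 for shFOXA1 and -0.71 for siEZH2, with 27 and 33 members called lower and 6 and 1 called higher. The all-gene medians were then -0.01 and -0.03. Shares of all genes called lower or higher on that scale were not computed.

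**Figure D2:**
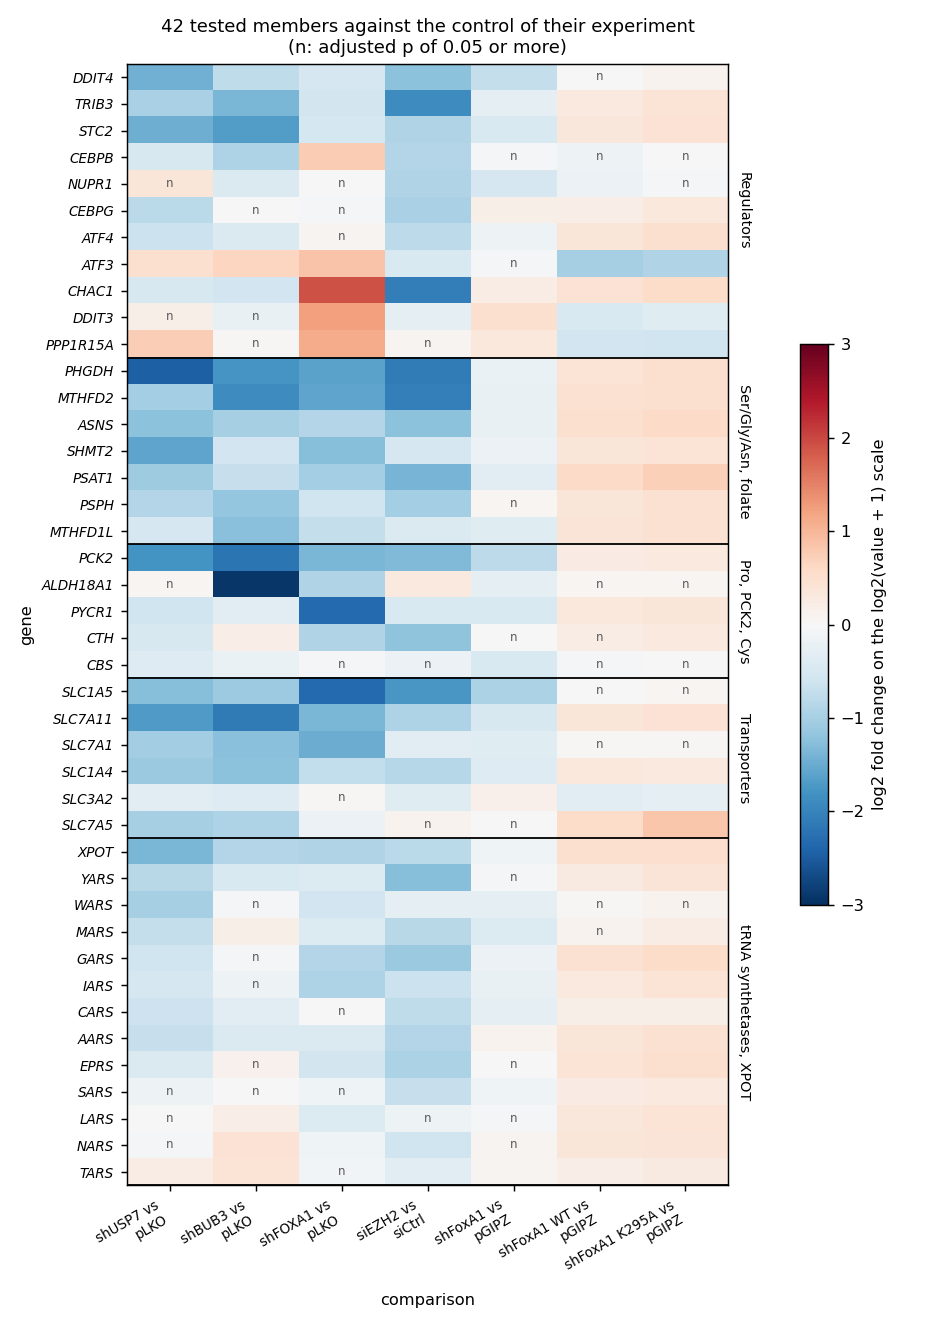
Log2 fold change (colour, log2(value + 1) scale) of each of the 42 tested members (rows, grouped by role) against the control of its own experiment (columns); n marks an adjusted p of 0.05 or more. The serine, folate and transporter rows are mostly blue in the first 5 columns and pale red in the 2 re-expression columns, while ATF3, DDIT3, CHAC1 and PPP1R15A are red with shFOXA1.

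ATF4 RNA was 124, 123 and 116 FPKM in the pLKO libraries, 78.2, 73.1 and 78.9 with shUSP7, 83.3, 84.3 and 103 with shBUB3, and 122, 126 and 135 with shFOXA1. It was 97.1, 104 and 114 FPKM with siCtrl and 59.8, 59.98 and 60.6 with siEZH2. In the pGIPZ experiment it was 97.2, 92.3 and 93.1 RPKM in the control, 86.2, 84.9 and 83.4 with shFoxA1, 122, 129 and 117 with WT, and 133, 135 and 130.1 with K295A. All libraries of shUSP7, shBUB3, siEZH2 and shFoxA1 thus lay below those of their controls, and the shFOXA1 libraries overlapped pLKO. ATF4 fell by 0.65 on the log2 scale with shUSP7 (SE 0.0801, adjusted p = 2.4e-05), by 0.42 with shBUB3 (adjusted p = 0.00063), by 0.79 with siEZH2 (SE 0.0718, adjusted p = 7.2e-06) and by 0.15 with shFoxA1 (adjusted p = 0.0035). With shFOXA1 the difference was 0.07 (adjusted p = 0.42), and median-ratio scaling made it a called rise of 0.24 (adjusted p = 0.028).

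The regulators, ATF4 included, split by knockdown. With siEZH2, 10 of 11 regulators were called lower (43% of all genes). With shFOXA1, 5 were called higher, 3 lower and 3 not called (25.2% of all genes higher and 45.1% lower). In direct tests 10 of 11 regulators were higher in shFOXA1 than in shUSP7 and 10 of 11 higher than in shBUB3, where 28.1% and 27.6% of all genes were called higher. Higher than another knockdown is not always a rise: TRIB3, DDIT4 and STC2 were called lower than pLKO with shFOXA1. Against shBUB3, ATF3 was not called without shBUB3 replicate 2 (0.16), DDIT4 without shBUB3 replicate 1 (0.21), and NUPR1 without shBUB3 replicate 1 (0.36) or 2 (0.30) or shFOXA1 replicate 3 (0.41). The siEZH2 difference was lower than the shFOXA1 difference for 11 of 11 regulators in a test of the interaction over both experiments (28.2% of all genes).

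CHAC1, an enzyme that breaks down glutathione, had the largest such difference of the members. It was 4.33, 4.68 and 4.57 FPKM in pLKO and 18.7, 19.5 and 20.9 with shFOXA1, while it was 9.46, 10.9 and 11.4 with siCtrl and 1.85, 1.53 and 1.90 with siEZH2. Neither pair of groups overlapped. CHAC1 was 4.36-fold higher by means with shFOXA1 (log2 difference 1.91 ± 0.0654 SE, adjusted p = 4.1e-10) and 6.01-fold lower with siEZH2 (-2.07 ± 0.0984, adjusted p = 1.4e-07). The difference between these effects was -3.97 (adjusted p = 2e-13). In shUSP7 and shBUB3 it was lower, by -0.48 and -0.57 (adjusted p = 5.9e-05 and 1.3e-05). With shFoxA1 it was 9.64, 9.70 and 9.39 RPKM against 9.34, 7.89 and 7.23 in pGIPZ, a difference of 0.21 (adjusted p = 0.027) that was not called without pGIPZ replicate 2 (0.20) or 3 (0.14), or without shFoxA1 replicate 1 (0.21) or 2 (0.21).

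DDIT3, the CHOP factor linked to cell death under lasting stress, was 9.28, 9.88 and 10.8 FPKM in pLKO and 23.2, 24.7 and 26.4 with shFOXA1. In the pGIPZ experiment it was 25.6, 24.4 and 23.5 RPKM in the control, 35.3, 32.7 and 35.3 with shFoxA1, 19.7, 16.0 and 17.2 with WT and 20.3, 17.7 and 18.3 with K295A. DDIT3 therefore rose in both FOXA1 knockdowns, by 1.23 (adjusted p = 9.6e-07) and 0.47 (adjusted p = 0.00015). It was lower than pGIPZ with WT, by -0.46 (adjusted p = 0.0003), and with K295A, by -0.37 (adjusted p = 0.0011). With shUSP7 and shBUB3 the differences were 0.18 and -0.23 (adjusted p = 0.16 and 0.084). With siEZH2 the libraries overlapped siCtrl, and the difference of -0.26 (adjusted p = 0.037) was not called without siCtrl replicate 1 (-0.22) or 3 (-0.23), without siEZH2 replicate 1 (-0.18), or after median-ratio scaling. The 3′ end of DDIT3 (chr12:57516588-57521737, minus strand, GENCODE 29 on GRCh38) overlaps that of MARS (chr12:57475445-57517569, plus strand), and the library kit as named does not mark strand, so reads in the overlap cannot be told apart.

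PPP1R15A, the phosphatase subunit that reverses eIF2 phosphorylation, was 1.46, 1.31 and 1.46 FPKM in pLKO, 3.06, 3.04 and 3.02 with shUSP7, 1.23, 1.49 and 1.71 with shBUB3 and 3.96, 4.48 and 4.19 with shFOXA1. It rose by 0.75 with shUSP7 (adjusted p = 4e-06) and by 1.11 with shFOXA1 (adjusted p = 8.9e-08). With shBUB3 it differed by 0.04 (adjusted p = 0.69) and with siEZH2 by 0.07 (adjusted p = 0.6). ATF3, a stress-induced repressor, ranged from 7.80 to 8.73 FPKM in pLKO and rose by 0.48, 0.64 and 0.85 with shUSP7, shBUB3 and shFOXA1 (adjusted p = 5.6e-05, 4.7e-06 and 3e-07). It fell by 0.46 with siEZH2 (adjusted p = 0.0014). CEBPB, a partner of ATF4, rose with shFOXA1 by 0.77 (adjusted p = 0.00043) and fell with shUSP7, shBUB3 and siEZH2, by 0.48, 0.92 and 0.87 (adjusted p = 0.01, 0.00013 and 0.00013).

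TRIB3, DDIT4 and STC2 were each called lower with shUSP7, shBUB3, shFOXA1 (against the same pLKO libraries) and siEZH2. TRIB3, a pseudokinase that damps ATF4, was 27.6, 26.9 and 28.4 FPKM with siCtrl and 7.31, 6.20 and 6.67 with siEZH2. It fell there by 1.89 (adjusted p = 6.1e-08) and with shBUB3 by 1.37 (adjusted p = 3.2e-08). DDIT4, an inhibitor of mTORC1, was 116, 123 and 129 FPKM in pLKO and 41.5, 44.4 and 48.0 with shUSP7, a fall of 1.44 (SE 0.0805, adjusted p = 3.4e-08). With siEZH2 it was 61.6, 55.6 and 57.0 against 147, 118 and 149 FPKM with siCtrl (-1.23, adjusted p = 2.5e-06). Both of these DDIT4 groups were clear of their controls. NUPR1, a small stress-induced chromatin protein, was 71.6, 66.5 and 114 FPKM with shBUB3 against 113, 115 and 106 in pLKO. Its groups overlapped, and the difference of -0.44 (adjusted p = 0.027) was not called without pLKO replicate 1 (-0.43) or 2 (-0.41), or without shBUB3 replicate 1 (-0.35) or 2 (-0.29). CEBPG, another dimer partner of ATF4, fell by 0.81 with shUSP7 (adjusted p = 4.3e-07) and by 0.96 with siEZH2 (adjusted p = 2.3e-05). STC2, a secreted glycoprotein, was 12.7, 12.01 and 13.0 FPKM in pLKO, 3.57, 3.95 and 4.24 with shUSP7 and 2.94, 3.42 and 3.36 with shBUB3. Its falls were 1.47 (adjusted p = 6.4e-09) and 1.68 (adjusted p = 1.8e-09).

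**Figure D3:**
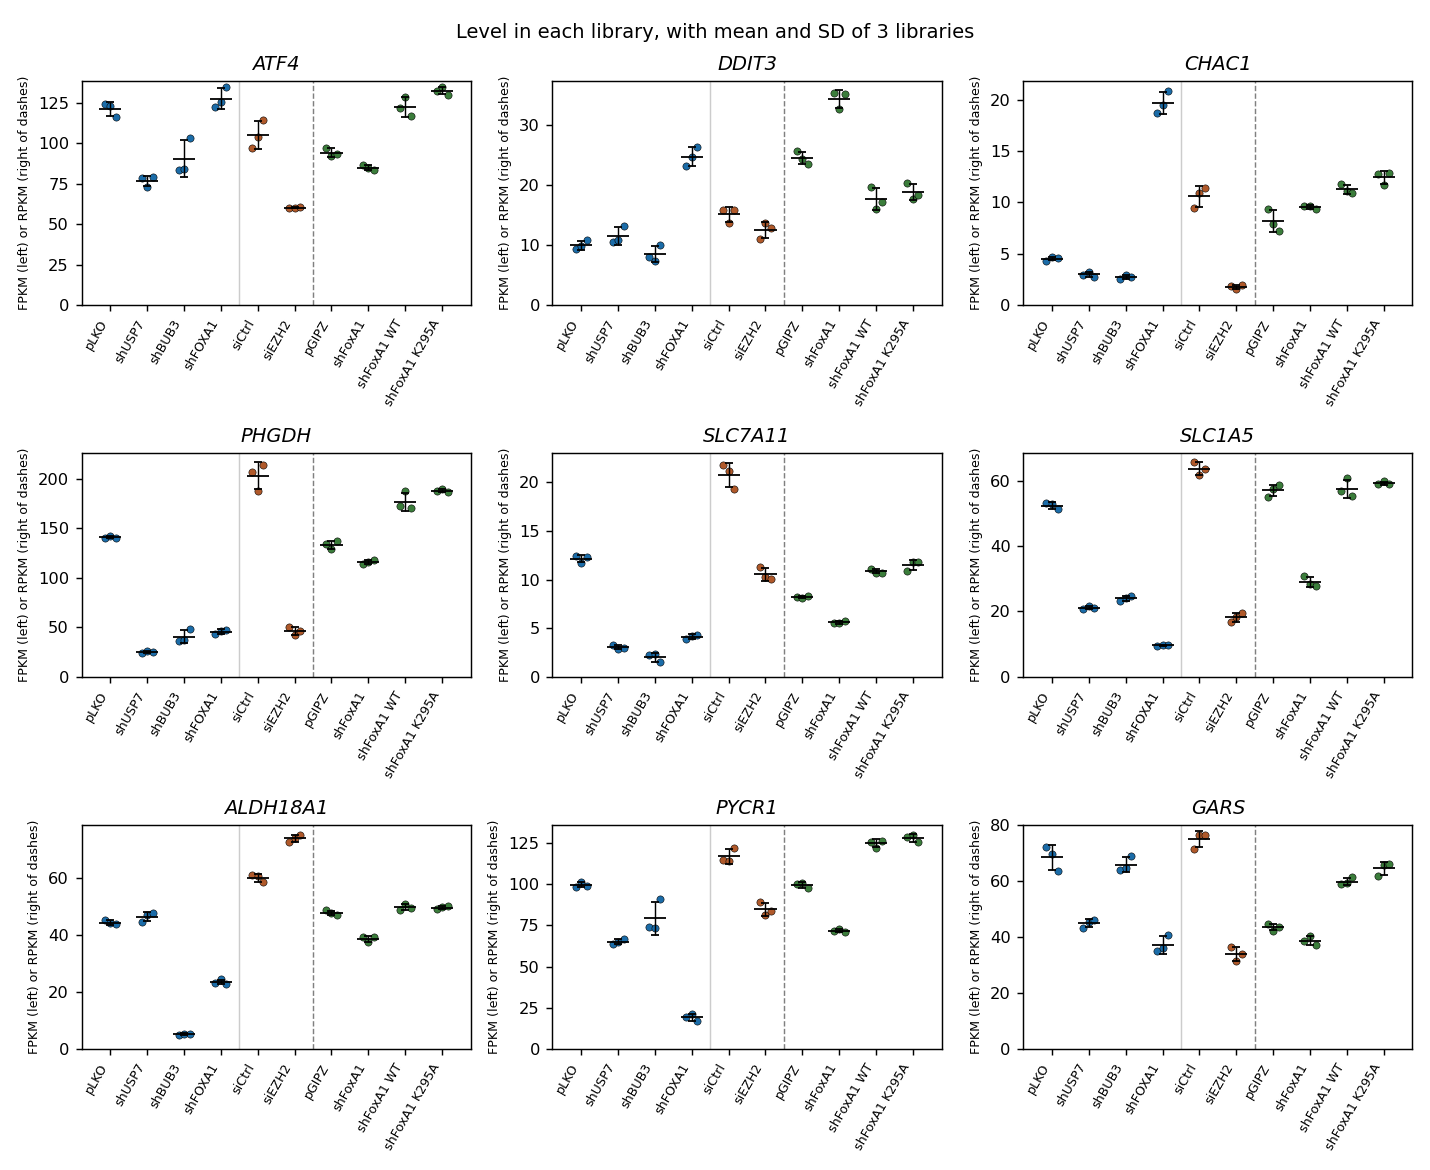
Level of 9 members in every library (points), in FPKM left of the dashed line and RPKM right of it, by group, with the mean (wide bar) and SD (error bar) of 3 libraries. CHAC1 and DDIT3 are high with shFOXA1, PHGDH and SLC1A5 are low in all 4 knockdowns of the FPKM table, and ALDH18A1 is low with shBUB3 and shFOXA1.

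The serine, folate and asparagine enzymes fell together. All 7 tested enzymes of this group were called lower with shUSP7, with shBUB3, with shFOXA1 and with siEZH2, with medians of -1.06, -1.15, -1.01 and -1.22. Of all genes, 33%, 32%, 45.1% and 43% were called lower in the same order. With shFoxA1, 6 of 7 were called lower (24.2% of all genes) with a median of -0.21, and PSPH differed by 0.07 (adjusted p = 0.26).

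PHGDH, which catalyses the first step of serine synthesis from glucose, had the highest mean level of the members in pLKO, at 141 FPKM. Its values were 140.4, 142 and 140.0 FPKM in pLKO, 23.8, 26.3 and 24.8 with shUSP7, 35.8, 37.6 and 48.5 with shBUB3, and 43.03, 46.6 and 47.3 with shFOXA1. They were 207, 188 and 214 FPKM with siCtrl and 50.3, 42.6 and 46.1 with siEZH2. Every knockdown library lay at 50.3 FPKM or below and every control library at 140.0 or above. PHGDH was 5.63-fold lower by means with shUSP7 (-2.45 ± 0.0939, adjusted p = 1.7e-09), 3.47-fold lower with shBUB3, 3.09-fold lower with shFOXA1 and 4.38-fold lower with siEZH2 (-2.11, adjusted p = 4.3e-08). The level with shUSP7 was below that with shBUB3 by -0.67 (adjusted p = 7e-05), and shFOXA1 and shBUB3 differed by 0.18 (adjusted p = 0.11). With shFoxA1 the values were 114, 115 and 118 RPKM against 134, 129 and 137 in pGIPZ, a fall of 0.20 (SE 0.0341, adjusted p = 0.00042).

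The next serine enzymes changed less than PHGDH in the knockdowns measured in FPKM. PSAT1, the aminotransferase that follows PHGDH, was 92.3, 91.8 and 89.4 FPKM in pLKO, 41.7, 42.96 and 44.8 with shUSP7 and 41.9, 49.3 and 43.6 with shFOXA1. It was 108, 118 and 115 FPKM with siCtrl and 46.7, 42.4 and 39.3 with siEZH2. Its falls were 1.06, 1.01 and 1.39 (adjusted p = 3.3e-08, 3.1e-08 and 3.5e-07). PSPH, which releases serine, was 20.0, 19.5 and 20.0 FPKM in pLKO and 7.94, 8.61 and 8.68 with shBUB3, and it was 20.3, 20.8 and 21.6 with siCtrl and 10.999, 10.1 and 8.61 with siEZH2. It fell by 1.15 and 1.01 in these groups (adjusted p = 5.2e-09 and 6.4e-06). Neither enzyme's groups overlapped in these comparisons. By means, PSAT1 fell 1.27-fold with shFoxA1, against 1.15-fold for PHGDH.

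The mitochondrial folate enzymes differed in which knockdown lowered them most. SHMT2, which splits serine into glycine and a one-carbon unit, was 108, 103 and 108 FPKM in pLKO, 34.0, 35.1 and 36.3 with shUSP7, 65.8, 67.1 and 80.3 with shBUB3 and 43.4, 44.2 and 42.3 with shFOXA1. MTHFD2, the next enzyme of that path, was 43.7, 45.4 and 42.3 FPKM in pLKO, 20.2, 21.1 and 22.3 with shUSP7, 11.1, 11.3 and 10.7 with shBUB3 and 12.8, 14.6 and 14.7 with shFOXA1. SHMT2 was thus lowest with shUSP7 and MTHFD2 lowest with shBUB3. In the direct test, shUSP7 was below shBUB3 for SHMT2 by -0.99 (adjusted p = 2.3e-07) and above it for MTHFD2 by 0.88 (adjusted p = 2e-07). With siEZH2, MTHFD2 was 15.5, 13.7 and 13.0 FPKM against 59.7, 60.7 and 63.5 with siCtrl (-2.05, adjusted p = 4.3e-08), and SHMT2 fell by 0.50 (adjusted p = 0.00011). MTHFD1L, which releases formate to the cytosol, was 7.03, 7.46 and 7.16 FPKM in pLKO and 2.28, 2.48 and 2.50 with shBUB3 (-1.26, adjusted p = 2.4e-08).

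ASNS was 48.7, 49.95 and 47.1 FPKM in pLKO, 19.9, 19.9 and 20.9 with shUSP7, 22.6, 23.8 and 25.2 with shBUB3 and 26.0, 25.6 and 26.7 with shFOXA1. It was 50.2, 55.0 and 55.6 FPKM with siCtrl and 23.1, 23.3 and 20.9 with siEZH2. The groups did not overlap their controls, and its falls were 1.22, 1.00, 0.87 and 1.22 (adjusted p = 2.5e-09, 1.2e-08, 2.4e-08 and 5.3e-07). With shFoxA1 it fell by 0.21 (adjusted p = 0.0038).

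The proline enzymes responded to different knockdowns. ALDH18A1, which makes the first proline precursor from glutamate, was 45.2, 44.0 and 43.7 FPKM in pLKO, 44.5, 46.9 and 47.7 with shUSP7, 4.69, 5.20 and 5.23 with shBUB3 and 23.1, 24.3 and 22.8 with shFOXA1. It was 8.79-fold lower by means with shBUB3 (-2.91 ± 0.0506, adjusted p = 3.9e-11). With shUSP7 the difference was 0.06 (adjusted p = 0.29), and shUSP7 stood 2.97 above shBUB3 in the direct test (adjusted p = 7.8e-12). With siEZH2 ALDH18A1 was 72.6, 74.1 and 75.1 FPKM against 61.2, 60.7 and 58.5 with siCtrl, and it was the 1 member called higher there (0.29, adjusted p = 0.0017).

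PYCR1, the last enzyme of proline synthesis, was 98.4, 101 and 99.3 FPKM in pLKO, 63.9, 65.1 and 66.7 with shUSP7, 73.9, 73.6 and 91.1 with shBUB3 and 19.4, 21.2 and 16.8 with shFOXA1. Each knockdown lay below pLKO, and shFOXA1 was far below the others. The fall was 2.33 with shFOXA1 (SE 0.0904, adjusted p = 1.1e-09), and shFOXA1 was below shUSP7 by -1.72 (adjusted p = 1.6e-08) and below shBUB3 by -1.997 (adjusted p = 3.8e-09). With siEZH2 PYCR1 fell by 0.46 (adjusted p = 0.00016), and the interaction of 1.87 showed a smaller fall there than with shFOXA1 (adjusted p = 1.6e-09). With shFoxA1 it was 71.4, 72.8 and 71.3 RPKM against 100.1, 101 and 97.9 in pGIPZ (-0.47, adjusted p = 1.7e-08).

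PCK2, mitochondrial PEPCK, was 44.2, 47.4 and 48.5 FPKM in pLKO, 11.3, 13.6 and 13.6 with shUSP7, 7.61, 9.74 and 11.3 with shBUB3 and 17.9, 18.1 and 16.6 with shFOXA1. With siEZH2 it was 17.5, 17.3 and 16.9 FPKM against 43.6, 43.6 and 47.0 with siCtrl, and with shFoxA1 it was 29.95, 32.4 and 30.2 RPKM against 54.6, 54.5 and 53.8 in pGIPZ. Every knockdown library was below every control library of its own experiment. The falls were 1.79, 2.19, 1.36, 1.33 and 0.80 in the same order (adjusted p = 9.9e-08, 1.7e-08, 6.3e-07, 1.9e-07 and 2.1e-09). CTH, which makes cysteine from cystathionine, was 5.88, 6.27 and 7.05 FPKM with siCtrl and 2.28, 2.53 and 1.86 with siEZH2 (-1.20, adjusted p = 6.1e-06). With shBUB3 its difference of 0.21 (adjusted p = 0.043) was not called without any 1 of the pLKO libraries (0.18 to 0.23) or without shBUB3 replicate 1 (0.11). CBS, the enzyme before it, ranged from 0.982 to 3.94 across the FPKM table and has a near-identical gene copy, so its values are uncertain.

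Of the 6 transporters, all were called lower with shUSP7 and with shBUB3, 5 with shFOXA1, 5 with siEZH2 and 4 with shFoxA1, where SLC3A2 was called higher. Of all genes, 33%, 32%, 45.1%, 43% and 24.2% were called lower in the same order, and 25% were called higher with shFoxA1. SLC7A11, which exchanges cystine for glutamate, was 12.4, 11.8 and 12.3 FPKM in pLKO, 3.29, 2.87 and 3.01 with shUSP7, 2.22, 2.37 and 1.498 with shBUB3 and 3.86, 4.22 and 4.29 with shFOXA1. Its falls were 1.70, 2.13 and 1.36 (adjusted p = 4.6e-08, 6.6e-09 and 1.9e-07). With siEZH2 it was 11.3, 10.23 and 10.1 FPKM against 21.8, 21.1 and 19.4 with siCtrl (-0.91, adjusted p = 5.1e-06). SLC3A2, the heavy chain that SLC7A11 and SLC7A5 need at the membrane, fell by 0.32, 0.38 and 0.36 with shUSP7, shBUB3 and siEZH2 (adjusted p = 0.004, 0.0012 and 0.0042), the last not called after median-ratio scaling. With shFOXA1 SLC3A2 differed by 0.04 (adjusted p = 0.66).

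SLC1A5 was 53.0, 52.9 and 51.2 FPKM in pLKO, 20.8, 21.5 and 21.1 with shUSP7, 23.2, 24.0 and 24.8 with shBUB3 and 9.52, 9.84 and 9.70 with shFOXA1. It was 65.7, 61.8 and 63.6 FPKM with siCtrl against 16.7, 18.3 and 19.6 with siEZH2, and 55.2, 57.3 and 58.6 RPKM in pGIPZ against 30.9, 28.4 and 27.8 with shFoxA1. No knockdown overlapped its control, and shFOXA1 was the lowest group of the pLKO experiment. SLC1A5 was 5.41-fold lower by means with shFOXA1 (-2.32 ± 0.0417, adjusted p = 8.2e-12), and shFOXA1 was below shUSP7 by -1.05 and below shBUB3 by -1.23 (adjusted p = 1.9e-09 and 4.6e-10). The fall of 0.95 with shFoxA1 (adjusted p = 6.7e-09) had the largest size of any member in that comparison.

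SLC7A1, an arginine and lysine carrier, was 20.7, 19.1 and 20.0 FPKM in pLKO, 9.41, 9.21 and 8.90 with shUSP7, 8.76, 9.002 and 5.98 with shBUB3 and 6.58, 6.63 and 6.12 with shFOXA1, and its falls were 1.04, 1.25 and 1.49 (adjusted p = 7.6e-06, 1.5e-06 and 2.4e-07). With siEZH2 it fell by 0.33 (adjusted p = 0.0024). SLC1A4, a carrier of serine and alanine, was 2.13, 2.42 and 2.19 FPKM in pLKO, 0.542, 0.512 and 0.478 with shUSP7 and 0.4002, 0.490 and 0.296 with shBUB3, with falls of 1.10 and 1.22 (adjusted p = 7.4e-08 and 2.9e-08). SLC7A5, the leucine carrier, was 2.31, 2.48 and 2.09 FPKM in pLKO, 0.539, 0.659 and 0.731 with shUSP7 and 0.777, 0.765 and 0.633 with shBUB3, with falls of 1.00 and 0.93 (adjusted p = 2.7e-07 and 4.7e-07). At these low levels the log2(value + 1) scale understates the change. SLC7A5 differed by -0.18 with shFOXA1 (adjusted p = 0.042), which was not called without any 1 of pLKO replicates 1 and 2 and shFOXA1 replicates 1, 2 and 3 (-0.20 to -0.14), and by 0.11 with siEZH2 (adjusted p = 0.36).

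Genes of tRNA charging and export separated the knockdowns of USP7 and BUB3. Of the 13, 9 were called lower and 1 higher with shUSP7 (33% and 29.1% of all genes). With shBUB3 4 were lower, 4 higher and 5 not called, near the 32% and 33.3% of all genes. Set directly against each other, shUSP7 was below shBUB3 for 12 of 13 (36.2% of all genes were called lower), and SARS differed by -0.15 (adjusted p = 0.062). The 4 called higher with shBUB3 were NARS (0.43, adjusted p = 8.1e-06), TARS (0.41, adjusted p = 7.4e-05), LARS (0.20, adjusted p = 0.0067) and MARS (0.19, adjusted p = 0.018), the charging enzymes for asparagine, threonine, leucine and methionine. MARS was not called there without pLKO replicate 3 (0.18). In the direct test the widest gaps were those of WARS (-0.95, adjusted p = 2.3e-07) and MARS (-0.90, adjusted p = 1.9e-07), which charge tRNAs with tryptophan and methionine.

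XPOT, which exports tRNA from the nucleus, was 79.1, 76.6 and 78.9 FPKM in pLKO, 29.4, 30.1 and 29.6 with shUSP7, 45.2, 46.4 and 34.7 with shBUB3 and 39.6, 43.5 and 40.7 with shFOXA1. Its fall was 1.37 with shUSP7 (adjusted p = 1.3e-07), 0.89 with shBUB3 (adjusted p = 4.6e-06) and 0.91 with shFOXA1 (adjusted p = 2.8e-06). With siEZH2 it was 51.2, 43.7 and 40.4 FPKM against 77.9, 82.2 and 77.2 with siCtrl (-0.80, adjusted p = 2.5e-05). The glycine enzyme GARS was 72.2, 69.8 and 63.6 FPKM in pLKO, 64.1, 64.6 and 69.0 with shBUB3 and 34.8, 36.0 and 40.6 with shFOXA1. GARS with shBUB3 overlapped pLKO (-0.05, adjusted p = 0.5), and shFOXA1 was below shBUB3 by -0.81 (adjusted p = 5.2e-07).

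With siEZH2, 12 of 13 genes of this role were called lower, with a median of -0.76, and LARS differed by -0.14 (adjusted p = 0.17). Of all genes, 43% were called lower there, with a median of -0.16. YARS, which charges tyrosine, was 62.4, 63.8 and 64.2 FPKM with siCtrl and 27.7, 22.7 and 26.2 with siEZH2, and GARS was 71.6, 76.7 and 76.7 against 36.3, 31.5 and 33.9. Neither overlapped, and their falls of 1.28 (SE 0.0801, adjusted p = 6.3e-07) and 1.12 (SE 0.0723, adjusted p = 7.6e-07) were the 2 of at least 2-fold in this role. The falls of TARS (0.33) and WARS (0.26) were not called after median-ratio scaling. With shFOXA1, 10 of 13 were called lower, with a median of -0.41 (45.1% and -0.15 over all genes). IARS, the isoleucine enzyme, fell there by 0.93 (adjusted p = 6e-07). NARS differed by -0.12 (adjusted p = 0.039), a call that was lost without any 1 of pLKO replicates 1 and 2 and shFOXA1 replicates 1, 2 and 3 (-0.13 to -0.10), and that turned to 0.04 after median-ratio scaling (adjusted p = 0.37).

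The knockdowns were also set against each other. Of 42 members, 26 were called higher and 11 lower with shFOXA1 than with shUSP7, where 28.1% of all genes were higher and 42.9% lower. With shFOXA1 against shBUB3, 21 were higher and 13 lower (27.6% and 45.8%), and with shUSP7 against shBUB3 12 were higher and 24 lower (29% and 36.2%). In the interaction test, the siEZH2 difference was above the shFOXA1 difference for 10 members and below it for 26 (29.4% and 28.2% of all genes). Median-ratio scaling moved the all-gene median of shFOXA1 against shBUB3 by 0.1145.

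Comparisons with separate controls could be set side by side. Of the members called in both FOXA1 knockdowns, 21 were lower in both, 3 were higher in both (DDIT3, CHAC1 and PPP1R15A) and 1, AARS, was lower with shFOXA1 and higher with shFoxA1. The direction was thus shared by 96% of these members, against 72.8% of the 4482 genes called in both. Since most members were lower in each knockdown, a shared direction largely restates the counts given above. For siEZH2 and shFOXA1, 26 members were lower in both, ALDH18A1 was higher with siEZH2 and lower with shFOXA1, and 4 members were lower with siEZH2 and higher with shFOXA1. These 4 were ATF3, DDIT3, CHAC1 and CEBPB. For siEZH2 and shFOXA1 the direction was shared by 83.9% of the members called in both, against 76% of the 5571 genes called in both.

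Most members were higher in the cells with re-expressed FOXA1 than in the knockdown. FOXA1 RNA itself was 0.87 higher than with shFoxA1 in both re-expression groups, and its levels there (151 to 152 RPKM with WT and 149 to 155 with K295A) also lay above those in pGIPZ (129.6 to 134). With WT, 35 of 42 members were called higher than with shFoxA1 and 4 lower, where 36.6% of all genes were called higher and 18.9% lower, and the members' median was 0.43. With K295A, 37 were higher and 4 lower (38.7% and 18.3% of all genes), with a median of 0.47. All 13 genes of tRNA charging and export and all 7 tested serine, folate and asparagine enzymes were called higher with WT, and all were with K295A, against the same shFoxA1 libraries. TARS differed by 0.02 with WT after median-ratio scaling (adjusted p = 0.64). The 4 members lower with WT were ATF3, DDIT3, PPP1R15A and SLC3A2, which were also the 4 lower with K295A against those libraries. After median-ratio scaling, 33 and 35 members were higher and 5 and 4 lower, and the matching shares of all genes tested were not computed. The share of higher genes among all called genes went from 65.9% to 49.82% for WT and from 67.93% to 49.31% for K295A.

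PCK2 was 29.95, 32.4 and 30.2 RPKM with shFoxA1, 63.8, 66.5 and 63.7 with WT and 65.5, 67.1 and 66.6 with K295A. PSAT1 was 42.5, 44.1 and 46.1 RPKM with shFoxA1, 84.4, 85.3 and 82.6 with WT and 90.0, 97.8 and 91.2 with K295A. SLC1A5 was 30.9, 28.4 and 27.8 RPKM with shFoxA1, 56.7, 60.7 and 55.4 with WT and 59.0, 59.8 and 59.0 with K295A. In all 3 genes both re-expression groups were clear of the knockdown. The WT difference was 1.04 for PCK2 (adjusted p = 1.7e-10), 0.91 for PSAT1 (adjusted p = 1.7e-09) and 0.96 for SLC1A5 (adjusted p = 4.8e-09), and the K295A differences were 1.08, 1.05 and 1.01. On the log2(value + 1) scale, PCK2 was the 1 member called at least 2-fold higher with WT (1.11% of all genes), and these 3 were with K295A (1.16%). By means of the deposited values, SLC1A4 was also 2.03-fold higher with WT, and SLC7A11 and SLC7A5 were 2.048-fold and 2.224-fold higher with K295A. PPP1R15A was 2.19-fold lower with WT and 2.27-fold lower with K295A by the same measure.

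Levels in the re-expression groups also passed those of the pGIPZ control. With WT, 28 of 42 members were called higher than pGIPZ and 5 lower (33.7% and 11.8% of all genes), and with K295A 31 were higher and 4 lower (37.8% and 12.8%). The medians were 0.30 and 0.37 over members, against 0.10 and 0.11 over all genes. Median-ratio scaling moved the all-gene median of the K295A comparison by -0.1042. On that scale the members' medians were 0.19 and 0.25, with 25 and 27 called higher and 7 and 5 lower. The all-gene medians were then 0.006 and 0.008, and the shares of all genes tested that were called were not computed. Among all called genes the share of higher ones went from 73.97% to 48.45% and from 74.71% to 49.43%. These comparisons share the pGIPZ libraries with the knockdown comparison and the knockdown libraries with the comparisons above.

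The roles differed in where re-expression left them. All 7 serine, folate and asparagine enzymes were called above pGIPZ with WT and with K295A, with medians of 0.40 and 0.47. Among tRNA charging and export genes 11 and 12 of 13 were above, where 33.7% and 37.8% of all genes were called higher. PHGDH was 134, 129 and 137 RPKM in pGIPZ, 173, 187 and 171 with WT and 188, 189 and 186 with K295A, an excess of 0.40 and 0.49 (adjusted p = 3e-06 and 5.7e-07). ATF4 was above pGIPZ by 0.37 with WT and 0.49 with K295A (adjusted p = 6.3e-06 and 6.5e-07). SLC1A5, by contrast, differed from pGIPZ by 0.01 with WT (adjusted p = 0.83), and SLC7A1 and ALDH18A1 by 0.03 and 0.06 (adjusted p = 0.62 and 0.1). The calls of SLC1A4 above pGIPZ (0.32 and 0.29) were not made without pGIPZ replicate 1 or 2, without replicate 1 of either re-expression group, without WT replicate 2 or without K295A replicate 3 (0.22 to 0.30), or after median-ratio scaling.

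ATF3 was 20.5, 23.5 and 22.1 RPKM in pGIPZ, 21.2, 20.6 and 22.0 with shFoxA1, 11.1, 9.12 and 11.7 with WT and 11.2, 11.1 and 11.9 with K295A. The knockdown overlapped its control (-0.05, adjusted p = 0.62), while both re-expression groups lay below it, by -0.99 and -0.89 (adjusted p = 1.4e-06 and 2.8e-06). PPP1R15A was 4.28, 4.10 and 4.10 RPKM in pGIPZ, 4.82, 6.10 and 5.32 with shFoxA1, 2.51, 2.52 and 2.37 with WT and 2.24, 2.56 and 2.36 with K295A. SLC3A2 was 123, 122 and 123 RPKM in pGIPZ, 138, 135 and 134 with shFoxA1, 95.5, 96.6 and 98.7 with WT and 99.3, 97.1 and 101 with K295A. Both rose in the knockdown, by 0.31 and 0.15 (adjusted p = 0.0035 and 0.00019), and lay below pGIPZ with WT, by -0.57 and -0.33 (adjusted p = 6.6e-05 and 5.2e-07).

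**Figure D4:**
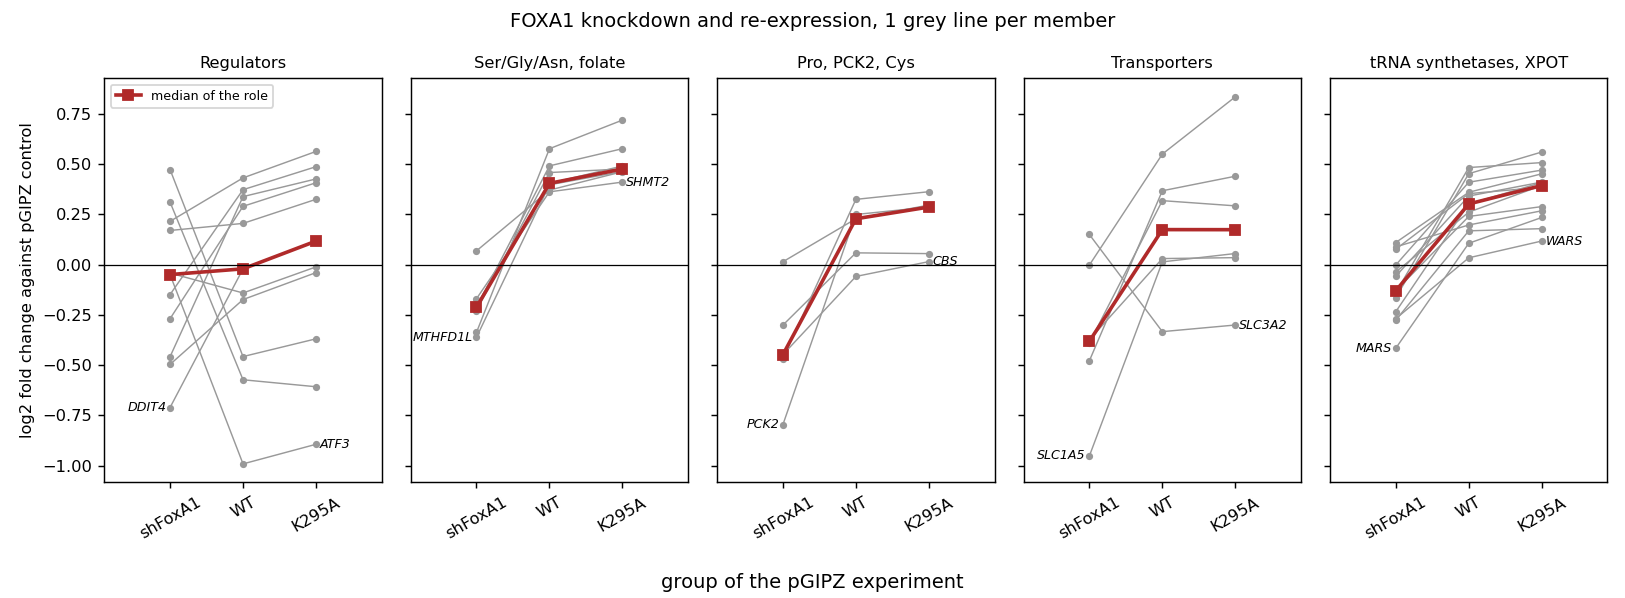
Log2 fold change against the pGIPZ control (vertical axis, log2(value + 1) scale) of each tested member (grey lines, panels by role) with shFoxA1, shFoxA1 WT and shFoxA1 K295A (horizontal axis), and the median of each role (red). The serine, folate and asparagine median goes from -0.21 to 0.40 and 0.47, and ATF3 ends lowest of all.

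No member was called different between the K295A and WT groups. In limma 0 of 42 members were called between the groups, as 0.183% of all genes were (23 genes), and the smallest adjusted p of a member was 0.192. At an unadjusted p under 0.05 in limma there were 14 members, all 14 higher with K295A, and 39 of 42 had a mean above that with WT. The matching shares of all genes were not computed, so these counts are not a result about the members. The members' median difference was 0.08 against 0.02 over all genes. The 95% intervals of the members lay between -0.254 and 0.461, and the median distance from a difference to its bound was 0.095. ATF4 differed by 0.11 (interval 0.0388 to 0.19, adjusted p = 0.25) and PSAT1 by 0.14 (adjusted p = 0.19). FOXA1 RNA differed by -0.0042 between the groups (adjusted p = 0.97). Among all called genes the share of higher ones was 47.83%, and 34.48% after median-ratio scaling.

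A further list held 15 genes for eIF2, its kinases, its exchange factor and regulators of its phosphorylation. Of these, 9 were called lower and 1 higher with siEZH2 (43% and 20.3% of all genes), 12 lower and 1 higher with shFOXA1 (45.1% and 25.2%), and 8 lower and 2 higher with shUSP7 (33% and 29.1%). With shBUB3, 1 was lower and 5 were higher (32% and 33.3%), so the count of higher genes was at the background, and with shFoxA1 4 were lower and 4 higher (24.2% and 25%). EIF2AK3 (PERK), the kinase that senses misfolded protein in the endoplasmic reticulum, was 4.28, 4.99 and 4.49 FPKM in pLKO and 7.51, 6.90 and 8.48 with shUSP7 (0.63, adjusted p = 0.00013). It was below pGIPZ by -0.64 with WT and with K295A (adjusted p = 3.8e-07 in both). EIF2AK4 (GCN2), the kinase that senses uncharged tRNA, was 19.1, 19.7 and 18.8 FPKM in pLKO and 10.1, 9.84 and 9.33 with shFOXA1 (-0.91, adjusted p = 5.9e-07), while with shFoxA1 it differed by -0.09 (adjusted p = 0.23). EIF2AK2 (PKR) fell by 0.68 with shUSP7 and 0.77 with shFOXA1 (adjusted p = 0.0017 and 0.00061), and EIF2AK1 (HRI) fell by 0.58 with siEZH2 (adjusted p = 7.1e-05). EIF2S1, the subunit of eIF2 that these kinases phosphorylate, fell by 1.25 with siEZH2 (adjusted p = 1.1e-06).

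Of 11 other cytosolic synthetase and scaffold genes, 10 were called lower and 0 higher with shFOXA1 (median -0.39; 45.1% and 25.2% of all genes), and 8 lower and 0 higher with siEZH2 (-0.46; 43% and 20.3%). With shUSP7, 6 were lower and 1 higher (median -0.22; 33% and 29.1%). The counts with shBUB3, 4 lower and 3 higher (median -0.09), were near the background of 32% and 33.3%, and with shFoxA1 2 were lower and 1 higher (median -0.06; 24.2% and 25%). KARS, the lysine enzyme, was 95.3, 102 and 99.3 FPKM with siCtrl and 23.9, 19.8 and 19.8 with siEZH2, a fall of 2.18 (adjusted p = 4.3e-08) that is larger than that of any synthetase among the members. Of 17 mitochondrial synthetases, 16 were called lower and 1 higher with shFOXA1 (median -0.65; 45.1% and 25.2% of all genes). With siEZH2, 8 were lower and 2 higher, and both the count lower and the median of -0.17 were near those of all genes (43% and -0.16). With shUSP7, 9 were lower and 5 higher (33% and 29.1%), with shBUB3 7 and 6 (32% and 33.3%), and with shFoxA1 8 and 0 (24.2% and 25%). The interaction test placed the siEZH2 difference above the shFOXA1 difference for 15 of these 17 genes (29.4% of all genes), the opposite of the cytosolic members, for which it was below in 9 of 13 (28.2% of all genes).

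Of 15 tested genes that are reported as ATF4 targets and are no members, 4 were called higher and 8 lower with shUSP7 (29.1% and 33% of all genes), 4 and 8 with shBUB3 (33.3% and 32%), 7 and 7 with shFOXA1 (25.2% and 45.1%), 4 and 10 with siEZH2 (20.3% and 43%), and 5 and 7 with shFoxA1 (25% and 24.2%). The counts higher with shUSP7 and lower with shFOXA1 were near the background. SESN2, which restrains mTORC1 when leucine is short, was 8.46, 8.03 and 8.94 FPKM in pLKO and 23.5, 25.0 and 23.9 with shUSP7 (1.41, adjusted p = 2e-09), and it also rose with shFOXA1 (1.09, adjusted p = 9.5e-09). ADM2 fell by 1.61 with shUSP7 (adjusted p = 1.7e-09) and by 1.11 with shBUB3 (adjusted p = 2.9e-08), and EIF4EBP1, a brake on cap-dependent translation, fell by 1.57 with shFOXA1 (adjusted p = 1.5e-06). Of the other one-carbon, glycine and methionine enzymes, 12 of 18 were lower and 3 higher with shUSP7 (33% and 29.1% of all genes), 10 and 2 with shBUB3 (32% and 33.3%), 14 and 1 with shFOXA1 (45.1% and 25.2%), and 6 and 3 with shFoxA1 (24.2% and 25%). With siEZH2, 11 of 17 were lower and 1 higher (43% and 20.3%). SHMT1, the cytosolic counterpart of SHMT2, fell by 1.63 with shUSP7, by 1.30 with shBUB3 and by 1.28 with siEZH2 (adjusted p = 5.4e-10, 3.2e-09 and 2.7e-06), and it rose by 1.25 with shFoxA1 (adjusted p = 9.1e-10).

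Members could also be divided by the searched promoter letters. With siEZH2, 16 of 16 members with a match and 15 of 19 without one were called lower (43% of all genes), with medians of -0.80 and -0.87. With shUSP7 these counts were 13 of 16 and 15 of 19 (medians -0.61 and -0.97; 33% of all genes), and with shBUB3 9 of 16 and 13 of 19 (medians -0.35 and -0.75; 32%). With shFOXA1 they were 10 of 16 and 13 of 19 (medians -0.41 and -0.55; 45.1%), and with shFoxA1 9 of 16 and 13 of 19 (medians -0.19 and -0.20; 24.2%).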

How the data were processed

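RNA of 30 LNCaP libraries was made with a NucleoSpin RNA kit and NEBNext Ultra RNA kit, which as named does not mark strand, and sequenced on an Illumina HiSeq, per the labels' protocols. The submitters' processing notes name the aligner STAR and the build hg38. Which counter and annotation were used is not given in the sources used here. The authors deposited FPKM values (fragments per length and library size) for 18 libraries and RPKM values for the 12 pGIPZ libraries. Counts were not used here, so depth is known only relative to other libraries. Of 26475 rows, 32 had no values.

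Values were tested as log2(value + 1) with limma 3.58.1 (R 4.3.3), with an intensity trend, over genes that reached 1 in 3 or more of the libraries fitted, in 1 fit per experiment (and 1 over the FPKM table for the interaction), with Benjamini-Hochberg adjustment over all genes tested and calls at 0.05, two-sided. The method was tested on simulated data. With 3 libraries against 3, an exact permutation test cannot go below p = 0.1, so none is given. The 2 tables were normalized separately and were tested apart. No pair of columns was identical (0 pairs), and libraries of a group correlated at 0.992 or above across genes. Tables and plots were made with Python 3.11.15, NumPy 2.4.6, pandas 2.3.3 and matplotlib 3.10.9.

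Members, roles and further lists were chosen with earlier results of these data known. Any member could be named; values per library are given for ATF4, for members called and changed at least 2-fold in some comparison with a control or among the re-expression groups, and for some others (ATF3, NUPR1, SLC3A2, AARS) chosen after their values were seen. Of the further lists, eIF2 kinases and called genes changed at least 2-fold, up to 3 per list and comparison, could be named. Promoter windows are RefSeq's (GRCh38.p14); 8 members had none (PSPH, SHMT2, ALDH1L2, PYCR1, SLC7A11, NUPR1, LARS and YARS). Gene positions are from GENCODE 29. Alternatives were a pseudocount of 0.1, no filter, a filter of 5, a replicate block, a fit of the compared groups alone, median-ratio scaling, no trend, and leaving out each library.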

Additional observations from a re-analysis of the deposited data

Results flagged for a closer look

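AARS, the alanine tRNA synthetase, went in opposite directions in the 2 FOXA1 knockdowns. It was 73.1, 78.4 and 77.1 FPKM with shFOXA1 against 103, 103 and 102 in pLKO, a difference of -0.4245 (limma, adjusted p = 7.4e-06), and every shFOXA1 library lay below every pLKO library. It was 97.9, 94.8 and 99.4 RPKM with shFoxA1 against 88.7, 89.5 and 92.3 in pGIPZ, a difference of 0.1095 (adjusted p = 0.0051), and every shFoxA1 library lay above every pGIPZ library. The difference between the 2 effects was not tested, since the tables were normalized separately.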

How the results depend on the processing

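Counts of called members stayed within 1.5 times of those reported under all 192 recomputations by the alternatives, and under 179 of the 180 that left out a library. The exception is the count of members higher with shFoxA1 than in pGIPZ, which ranged from 4 to 8 against the 7 reported. For single members, only those called in the reported fit, and ATF4 throughout, were followed. Gains of other members were therefore not counted. Under the alternatives 55 of the followed calls were lost, 1 was gained (ATF4 with shFOXA1) and 2 changed sign. These 2 were NARS with shFOXA1, 0.04469 after median-ratio scaling (adjusted p = 0.37), and DDIT4 in K295A against pGIPZ, -0.006393 after median-ratio scaling (adjusted p = 0.92); the cause was not tested. Leaving out libraries lost 116 calls. Of the recomputed medians over members, 21 under the alternatives and 21 with a library left out moved by more than the SD between libraries. The medians of 2 comparisons moved by over 1.5 times: WT against pGIPZ went from 0.30 to 0.19 after median-ratio scaling, and shFOXA1 against shBUB3 went from 0.16 to 0.29 after that scaling and to 0.099 without shBUB3 replicate 1.

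Replicate numbers showed no steady pairing of the samples: correlations of same-numbered deviations ranged from -0.185 to 0.126 over the comparisons. In shUSP7 against shBUB3, 5 of 6 samples correlated best with their own number (0.0414 to 0.116), and in shFOXA1 against shBUB3 4 did. At most 2 of 6 did in any other comparison. With the replicate block, the members called lower were 34 with shUSP7, 29 with shBUB3, 27 with shFOXA1, 36 with siEZH2 and 25 with shFoxA1, those called higher than pGIPZ were 29 with WT and 32 with K295A, and 0 were called between K295A and WT. Shares of all genes called with the replicate block were not computed.

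Low levels limit SLC7A5, SLC1A4, CTH and CBS, whose changes the scale understates. ATF4 protein was not measured in these files.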
